A study of Mus musculus with 28 samples.

Results

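The genes described here were 38 cell cycle and DNA replication genes, chosen by name, out of 55487 gene identifiers in each library. They were 5 genes of the G1 phase (cyclins and inhibitors), 13 genes of S phase and 20 genes of G2 and mitosis. All 38 were found in the files. The level of each was compared across 28 RNA libraries of mouse macrophages in 7 groups of 4 libraries. Of the 38 genes, 36 had at least 1 TPM (a share of transcripts, corrected for transcript length and scaled to a fixed total) in at least 4 libraries and were tested, while Ccne2 and Cenpf did not pass this filter.

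All groups were wild-type macrophages grown from bone marrow, from which poly(A) RNA was sequenced. The M0 group carries the label of a non-polarizing condition, and its labels name no uptake status. The other 6 groups received IFN-γ or IL-10 at 50 ng/mL for 48 h, together with T cells killed with ATP or NAD+ and marked by a fluorescent antibody to CD4. Within each cytokine the macrophages were sorted into cells that had engulfed regulatory T cells (Treg-phagocytic), cells that had engulfed conventional CD4 T cells (Tconv-phagocytic) and cells with neither (non-phagocytic). A comparison with M0 therefore mixes the cytokine with whatever else differed in the culture and the sort. The labels do not say that the replicates came from separate animals or cultures, so p-values measure the spread between these libraries only. For the 8 Treg-phagocytic libraries the dye in the title and the dye in the library name disagree, and libraries are named here by the title.

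Cells commit to division in G1, when D-type and E-type cyclins activate their kinases and release E2F factors from the RB proteins. E2F then switches on the S phase genes, among them the MCM helicase that unwinds DNA, PCNA that clamps the polymerase to its template, and the enzymes that make deoxynucleotides. The G2 and mitosis genes are switched on later, largely through a short promoter element named CHR and through CCAAT boxes, under the DREAM and B-MYB-FOXM1 complexes. Macrophages grown from bone marrow divide in response to M-CSF, and IFN-γ is known to restrain that growth.

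The promoters of 8 members are printed because they hold, or lack, CHR, CCAAT or E2F elements. Each is the run of 160 bases just before the transcription start in RefSeq (GRCm38.p6), read 5′ to 3′ on the strand of the gene. Capitals mark matches on either strand. The CHR element was searched as TTTGAA and as a second form with C, which reads TTCGAA on both strands. The CCAAT box was searched by its name, and the E2F element as TTTGGCGC, TTTCCCGC, TTTCGCGC or TTTGCCGC. Adjoining or overlapping matches run together. The first 6 are mitosis genes and the last 2 are S phase genes.
Kif11 (chr19:37376222-37376381, plus strand): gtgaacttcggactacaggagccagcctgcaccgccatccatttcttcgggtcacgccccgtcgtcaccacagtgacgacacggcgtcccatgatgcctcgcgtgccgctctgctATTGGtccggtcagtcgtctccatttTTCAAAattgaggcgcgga
Ube2c (chr2:164769769-164769928, plus strand): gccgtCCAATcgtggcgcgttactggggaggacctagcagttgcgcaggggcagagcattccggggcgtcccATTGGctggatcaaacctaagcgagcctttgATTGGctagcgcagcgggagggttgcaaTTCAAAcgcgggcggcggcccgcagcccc
Cdk1 (chr10:69352913-69353072, minus strand): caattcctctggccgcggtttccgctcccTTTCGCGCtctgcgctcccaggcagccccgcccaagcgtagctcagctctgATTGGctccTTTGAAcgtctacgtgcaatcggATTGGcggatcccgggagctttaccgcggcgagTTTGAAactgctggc
Top2a (chr11:99024190-99024349, minus strand): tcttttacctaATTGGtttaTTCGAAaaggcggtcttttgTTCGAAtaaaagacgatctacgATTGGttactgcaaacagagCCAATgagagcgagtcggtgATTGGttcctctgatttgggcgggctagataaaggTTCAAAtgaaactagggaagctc
Ccnb1 (chr13:100786487-100786646, minus strand): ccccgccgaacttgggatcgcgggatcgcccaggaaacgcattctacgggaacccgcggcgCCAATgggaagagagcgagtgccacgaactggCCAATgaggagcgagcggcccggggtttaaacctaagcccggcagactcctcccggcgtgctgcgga
Birc5 (chr11:117849077-117849236, plus strand): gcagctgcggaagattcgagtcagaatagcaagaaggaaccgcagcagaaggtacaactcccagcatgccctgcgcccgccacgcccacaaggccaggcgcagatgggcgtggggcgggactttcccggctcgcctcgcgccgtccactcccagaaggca
Mcm5 (chr8:75109349-75109508, plus strand): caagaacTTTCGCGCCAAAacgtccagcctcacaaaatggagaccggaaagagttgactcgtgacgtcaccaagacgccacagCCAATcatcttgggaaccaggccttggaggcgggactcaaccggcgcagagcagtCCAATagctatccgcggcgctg
Mcm6 (chr1:128359706-128359865, minus strand): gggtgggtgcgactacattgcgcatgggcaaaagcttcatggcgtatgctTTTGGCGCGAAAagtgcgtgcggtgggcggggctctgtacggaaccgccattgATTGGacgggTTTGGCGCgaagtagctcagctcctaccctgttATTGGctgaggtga

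Counting back from the start, with the base just before it as -1, the CHR letters of Kif11 began at -19 and its CCAAT box at -45. Ube2c had CHR at -29, and Cdk1 had it at -71 and -15, with an E2F element at -131. Top2a held 3 CHR matches, at -140, -120 and -23. Ccnb1 held CCAAT boxes at -99 and -67 and no CHR letters, and the Birc5 window held none of these letters. In Mcm5 E2F letters began at -153 and -149 as overlapping matches on opposite strands, and in Mcm6 at -110, -106 and -47.

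Promoters of 300 bases (250 before and 50 after the start) were found for 29 of the 38 members, as 31 windows. None was found for Kif20a, Mcm4, Gins2, Tpx2, Cdkn1c, Ccne2, Aurkb, Ccnd1 and Ccna2. The bases just after the start were found in an annotated transcript of the gene for 22 of the 31 windows. Among the printed genes they were not found for Kif11, Birc5, Mcm5 and Mcm6, so those starts are less certain. CHR letters were in 12 of 16 mitosis windows (75%), in 3 of 12 S phase windows (25%) and in 19.2% of all 32851 promoters. CCAAT was in 14 of 16 mitosis windows (87.5%), 10 of 12 S phase windows (83.3%) and 37.4% of all promoters. E2F letters were in 5 of 12 S phase windows (41.7%), in 1 of 16 mitosis windows (6.25%) and in 2.26% of all promoters. The S phase genes with E2F letters were Cdc6, Mcm3, Mcm5, Mcm6 and Mcm7. A match describes letters in a window, not a bound site.

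**Figure D1:**
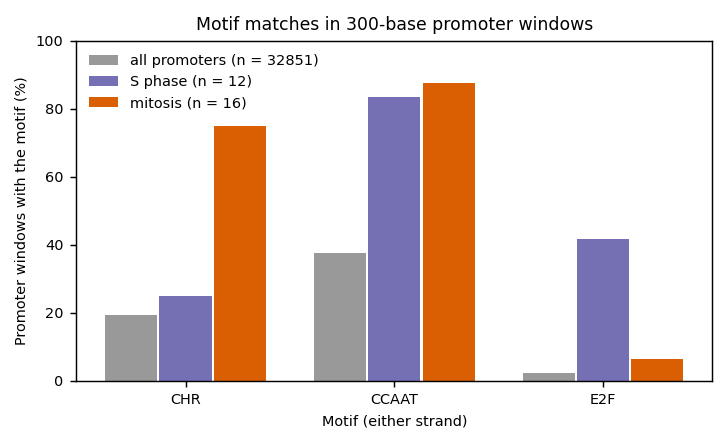
Share of promoters (percent, vertical axis) that hold CHR, CCAAT or E2F letters on either strand, for all 32851 promoters, 12 windows of S phase genes and 16 windows of mitosis genes. CHR letters were in 75% of mitosis windows against 25% of S phase windows, and E2F letters in 41.7% of S phase windows against 6.25% of mitosis windows.

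Depth was recovered from the steps between low TPM values. Relative to the deepest library it ranged from 11.2% to 24.2% under IFN-γ, from 48.9% to 89.9% under IL-10 and from 68.9% to 100% for M0, so low genes are least precise under IFN-γ. The 10 macrophage markers were all present and summed to between 16810 and 21561 TPM, most of it Lyz2, and single markers moved: for IFN-γ non-phagocytic libraries 3 were called higher and 7 lower, both against M0 and against IL-10. Itgam, for example, read 133 to 141 TPM in M0 and 75.1 to 78.6 TPM under IFN-γ, and Csf1r 588 to 677 against 385 to 429 TPM. For IL-10 against M0, 7 were called higher and 3 lower. The 15 T cell markers, none of which was at 0 in all libraries of a group, summed to 523 to 1001 TPM under IFN-γ, to 94.6 to 241 TPM under IL-10 and to 61.5 to 163 TPM for M0. All 15 were called higher in IFN-γ non-phagocytic libraries than in M0 (median log2 difference 3.07) and than in IL-10 non-phagocytic libraries (median 2.60). As deposited, Cd28 was not higher than in M0 (16.5 to 19.8 against 17.8 to 20.3 TPM), so that call came with the scaling described below. The part of T cell RNA and of these macrophage marker differences in the results below was not tested. In bulk RNA of this kind, fewer cells of a type and less RNA per cell cannot be told apart. Log2 differences are of scaled TPM plus 1, and the scaling added 0.29 to every log2 difference of IFN-γ non-phagocytic against M0, 0.31 to those of IFN-γ against IL-10 non-phagocytic, and -0.02 to those of IL-10 against M0. TPM printed per library are as deposited.

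The levels spanned a wide range. Cdkn1a (p21, which inhibits cyclin-dependent kinases) lay between 217 and 346 TPM and Pcna between 121 and 155 TPM over all 28 libraries. Cdkn1c (p57, a related inhibitor) lay between 10.2 and 80.6 TPM, Aurkb between 6.74 and 33.3 TPM and Cdk1 between 8.06 and 28.4 TPM. Mki67, which codes for the proliferation antigen Ki-67, stayed between 2.63 and 4.25 TPM in all 28 libraries and was called in none of the 14 comparisons. Ccne2 (at most 1.21 TPM) and Cenpf (at most 1.47 TPM) were the lowest of the genes by their maxima.

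**Figure D2:**
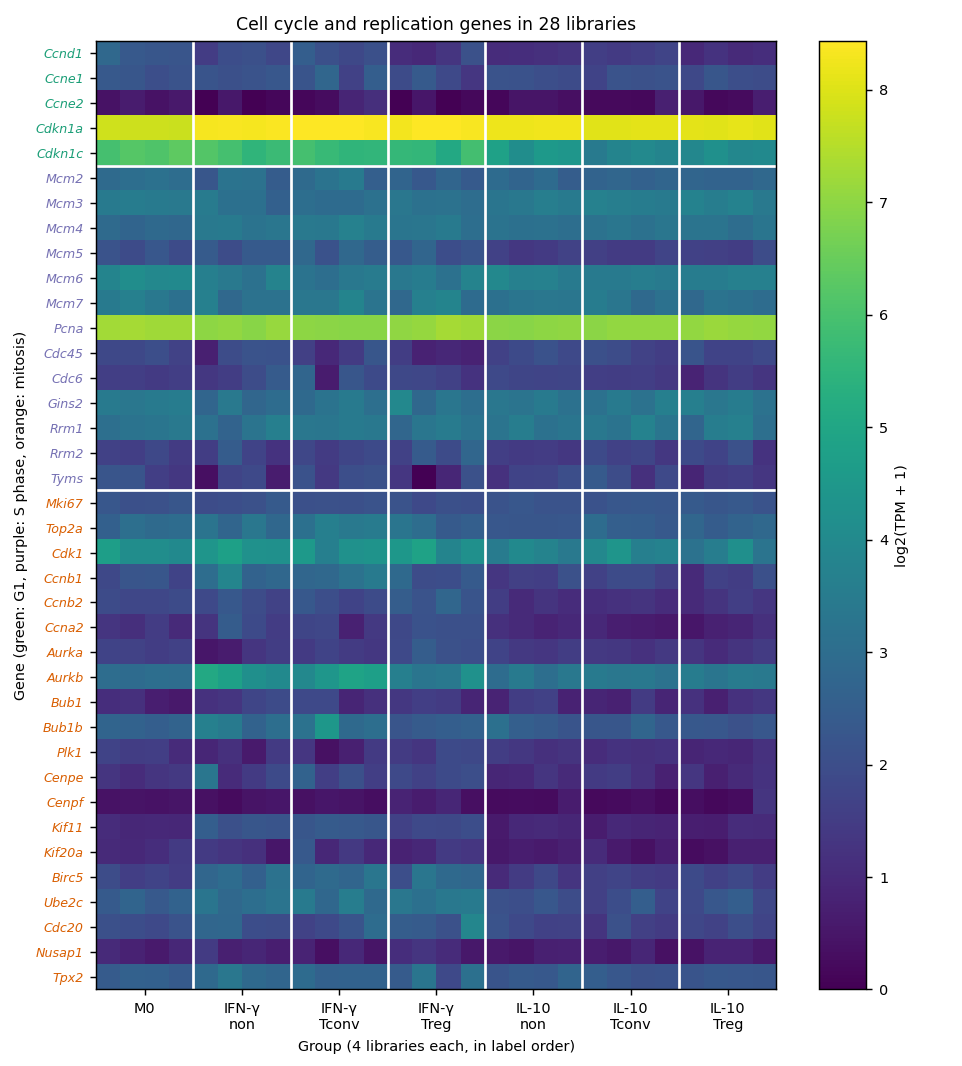
Heat map of log2(TPM + 1) for the 38 genes (vertical axis, ordered G1, S phase, mitosis) in the 28 libraries (horizontal axis, by group). Cdkn1a and Pcna are the brightest lines, and the mitosis genes Kif11 and Birc5 are brighter in all 12 IFN-γ libraries than in the M0 and IL-10 libraries, while Aurkb in IFN-γ Treg-phagocytic libraries (8.64 to 18.1 TPM) overlaps IL-10 libraries.

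IFN-γ libraries held more of several mitosis transcripts than M0. In IFN-γ non-phagocytic libraries against M0, 12 of 36 members were called higher, against 27.1% of all genes tested, and 0 were called lower, against 25.8%. The 12 were 9 of 19 mitosis genes, 2 of 13 S phase genes (Mcm4 and Mcm5) and 1 of 4 G1 genes (Cdkn1a). The median log2 difference was 0.70 over the mitosis genes, 0.08 over the S phase genes and -0.00 over all genes. Without scaling, 10 members were called higher and 5 lower (Ccnd1, Mcm6, Pcna, Gins2 and Aurka), with medians of 0.46 for mitosis and -0.18 for S phase.

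IL-10 libraries held less of several mitosis transcripts than M0. In IL-10 non-phagocytic libraries against the same M0 libraries, 2 of 36 members were called higher, against 13.7% of all genes, and 9 lower, against 12.8%. The 2 that rose were Cdkn1a and Mcm4. The 9 that fell were 5 of 19 mitosis genes (Top2a, Cdk1, Ccnb2, Kif20a and Ube2c), 2 of 13 S phase genes (Mcm5 and Pcna) and the G1 genes Ccnd1 and Cdkn1c. The S phase count was near the share of all genes. The median log2 difference was -0.19 over the mitosis genes and -0.16 over the S phase genes.

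Set directly against each other, IFN-γ non-phagocytic libraries had 19 of 36 members called higher than IL-10 non-phagocytic libraries, against 26.2% of all genes, and 0 called lower, against 24.8%. They were 12 of 19 mitosis genes (median log2 difference 0.93), 3 of 13 S phase genes (median 0.24, or -0.04 without scaling) and all 4 G1 genes tested. Without scaling 14 were called higher and 0 lower, and 16 of the 19 calls held in all 8 fits that left out a library (not Ccne1, Cdc20 and Bub1b). These comparisons share libraries, so their values are given side by side below and are not independent of each other.

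**Figure D3:**
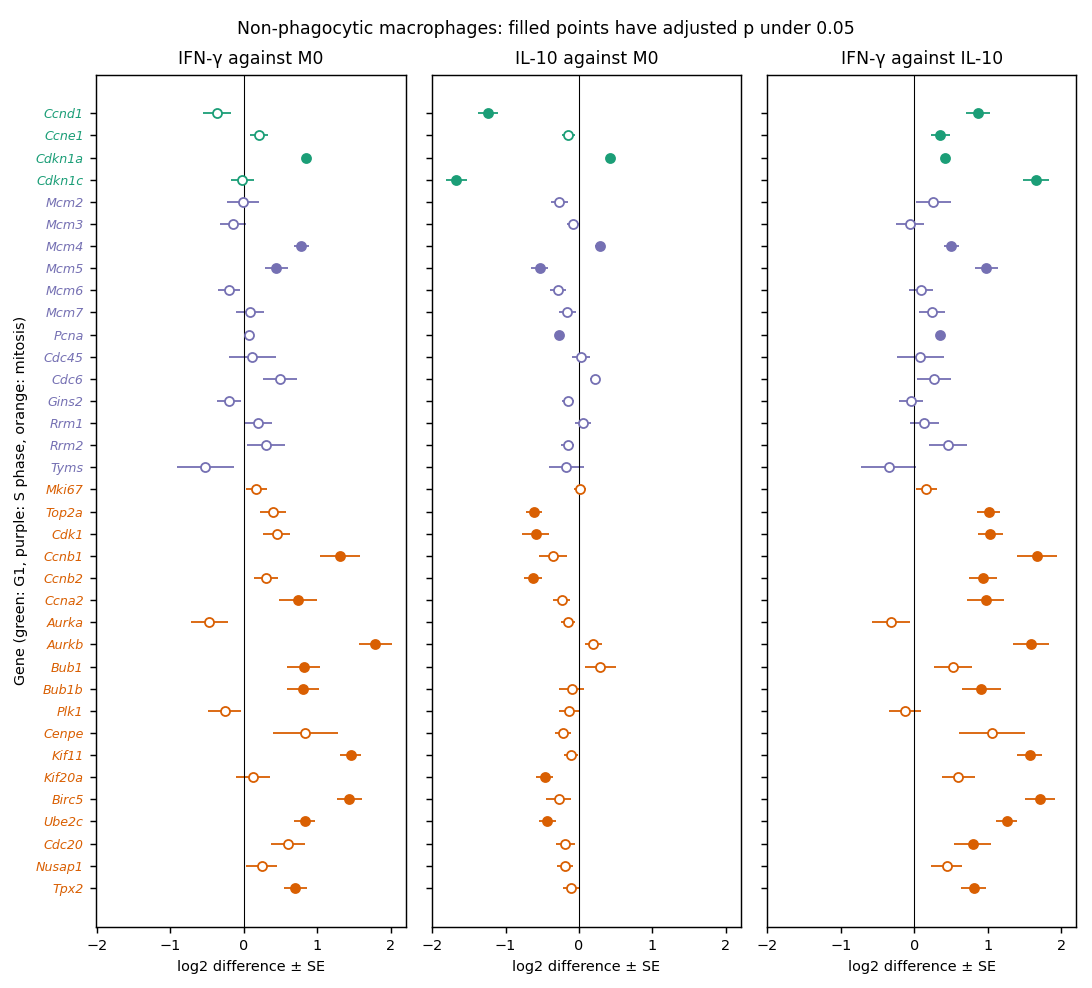
Log2 difference (horizontal axis, ± SE) of each of the 36 tested genes (vertical axis) in non-phagocytic libraries, for IFN-γ against M0, IL-10 against M0 and IFN-γ against IL-10. Filled points have an adjusted p under 0.05. Mitosis genes such as Aurkb (1.79), Kif11 (1.46) and Birc5 (1.44) lie to the right for IFN-γ against M0, while most S phase genes lie near 0.

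Among the G1 genes, the inhibitor Cdkn1a rose under both cytokines. It read 225, 223, 222 and 217 TPM in the M0 libraries, 322, 329, 318 and 335 TPM in IFN-γ non-phagocytic libraries and 297, 298, 301 and 307 TPM in IL-10 non-phagocytic libraries. The 3 groups did not overlap. The log2 difference from M0 was 0.84 (SE 0.03, limma adjusted p 1.66e-07) for IFN-γ and 0.42 (SE 0.02, limma adjusted p 9.77e-07) for IL-10, and it was 0.42 (SE 0.03, limma adjusted p 7.02e-06) between the cytokines.

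Cdkn1c fell under IL-10 and not detectably under IFN-γ. M0 libraries read 60.2, 73.8, 68.7 and 80.6 TPM and IL-10 non-phagocytic libraries 27.5, 16.7, 22.7 and 20.8 TPM, with every IL-10 library below every M0 library (log2 difference -1.67, SE 0.15, limma adjusted p 5.2e-05). IFN-γ non-phagocytic libraries read 72.2, 60.4, 44.8 and 53.5 TPM and overlapped M0 (log2 difference -0.02, 95% interval -0.36 to 0.33). IFN-γ against IL-10 gave 1.65 (SE 0.18, limma adjusted p 6.02e-05).

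Ccnd1 codes for cyclin D1, the cyclin through which growth factors start G1. It read 6.23, 4.16, 3.75 and 3.69 TPM in M0 and 1.12, 1.15, 1.26 and 1.41 TPM in IL-10 non-phagocytic libraries, without overlap (log2 difference -1.24, SE 0.14, limma adjusted p 0.000227). IFN-γ non-phagocytic libraries lay between, at 1.85, 2.97, 3.13 and 2.48 TPM. Their log2 difference from M0 was -0.36 (95% interval -0.79 to 0.06), and it was called lower without scaling. The 7 stromal markers, of which Lum was at 0 in these groups, summed to 116 to 135 TPM in M0, 83.1 to 87.6 TPM in IL-10 and 7.66 to 11.5 TPM in IFN-γ non-phagocytic libraries, and their part in Ccnd1 was not tested. Ccne1 (cyclin E1, which drives entry into S phase) was at 3.07 to 4.07 TPM in M0, 3.17 to 3.85 TPM under IFN-γ and 2.82 to 3.49 TPM under IL-10. Its call between the cytokines (0.35, SE 0.13, limma adjusted p 0.0443) came from groups that overlapped in deposited TPM. It was lost in 6 of 8 fits that left out a library (adjusted p 0.0595 to 0.119), without scaling (0.456) and in 1 model of all 28 libraries (0.144).

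In S phase, the MCM helicase subunits did not move as 1 unit. Mcm4 rose under both cytokines, from 6.53, 5.55, 6.35 and 6.04 TPM in M0 to 9.66, 10.04, 8.38 and 8.99 TPM under IFN-γ (log2 difference 0.79, SE 0.10, limma adjusted p 0.000266) and to 8.33, 7.59, 7.83 and 7.31 TPM under IL-10 (0.28, SE 0.07, limma adjusted p 0.015). No library of either cytokine overlapped M0. Mcm5 went apart: it read 3.43, 2.79, 3.88 and 2.77 TPM in M0, 4.31, 2.90, 4.25 and 4.19 TPM under IFN-γ and 2.13, 1.57, 1.70 and 2.15 TPM under IL-10. The IL-10 libraries were below all others (log2 difference from M0 -0.54, SE 0.11, limma adjusted p 0.00809). The IFN-γ call of Mcm5 (0.44, SE 0.16, limma adjusted p 0.0415) rested on groups that overlapped, and was lost in 6 of 8 fits that left out a library. Mcm2, Mcm3, Mcm6 and Mcm7 were not called in non-phagocytic libraries, with log2 differences from M0 of -0.01, -0.14, -0.20 and 0.08 for IFN-γ and of -0.27, -0.08, -0.29 and -0.16 for IL-10.

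Pcna, the most abundant S phase member, read 153, 155, 150.1 and 148 TPM in M0, 123, 122, 128 and 131 TPM in IL-10 and 128, 135, 121 and 139 TPM in IFN-γ non-phagocytic libraries. IL-10 libraries were lower than M0 (log2 difference -0.28, SE 0.03, limma adjusted p 0.000169). For IFN-γ against M0 the deposited TPM were lower in all 4 libraries, and the sign depended on scaling: 0.07 with scaling (95% interval -0.04 to 0.19, limma adjusted p 0.263) and -0.22 without it (limma adjusted p 0.00516). The call of Pcna between IFN-γ and IL-10 (0.35, SE 0.06) was likewise lost without scaling (limma adjusted p 0.479).

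The loading factors and nucleotide enzymes gave no call in non-phagocytic libraries against M0. For IFN-γ the log2 differences were 0.12 for Cdc45 and -0.20 for Gins2 (both parts of the active helicase), 0.49 for Cdc6 (which loads MCM onto origins), 0.19 for Rrm1 and 0.30 for Rrm2 (ribonucleotide reductase) and -0.52 for Tyms (thymidylate synthase). For IL-10 the same genes gave 0.03, -0.15, 0.22, 0.05, -0.16 and -0.17. Tyms ranged from 0.27 to 2.64 TPM among the 4 IFN-γ non-phagocytic libraries alone, so a difference of this size was not detectable for it.

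Mitosis genes carried the largest IFN-γ differences. Kif11, the motor that pushes spindle poles apart, read 1.09, 0.93, 0.98 and 0.93 TPM in M0, 4.77, 3.18, 3.75 and 3.54 TPM in IFN-γ and 0.54, 0.96, 1.00 and 0.87 TPM in IL-10 non-phagocytic libraries. All IFN-γ libraries were above all others (log2 difference from M0 1.46, SE 0.15, limma adjusted p 4.87e-05). Between 46.7 and 64.0 estimated reads stood behind each of these IFN-γ values. IL-10 libraries overlapped M0 (-0.11, 95% interval spanning 0, limma adjusted p 0.449).

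Aurkb and Birc5 code for the Aurora B kinase and survivin, partners in the chromosomal passenger complex that checks how chromosomes attach to the spindle. Aurkb read 7.14, 6.74, 7.22 and 7.16 TPM in M0 and 33.3, 26.9, 17.5 and 15.2 TPM under IFN-γ (log2 difference 1.79, SE 0.23, limma adjusted p 0.000199). Birc5 read 2.86, 1.95, 2.24 and 1.84 TPM in M0 and 5.96, 6.90, 5.06 and 8.03 TPM under IFN-γ (1.44, SE 0.17, limma adjusted p 0.000126). Neither gene overlapped between these groups. Under IL-10 Aurkb read 6.89 to 10.3 TPM and Birc5 0.99 to 2.57 TPM, and neither was called against M0.

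Ccnb1 (cyclin B1, which activates Cdk1 for entry into mitosis) read 2.58, 3.69, 3.82 and 2.22 TPM in M0 and 7.09, 13.2, 5.30 and 6.03 TPM under IFN-γ, without overlap (log2 difference 1.31, SE 0.27, limma adjusted p 0.00316). Its partner Cdk1 read 25.6, 16.8, 16.6 and 14.9 TPM in M0, 20.2, 26.8, 18.2 and 17.7 TPM under IFN-γ and 10.4, 15.1, 12.6 and 9.54 TPM under IL-10. The first M0 library was high in Cdk1, and IFN-γ libraries overlapped M0 (0.45, limma adjusted p 0.0668). The fall of Cdk1 under IL-10 (-0.59, SE 0.18, limma adjusted p 0.0428) was lost in 6 of 8 fits that left out a library.

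Ube2c, the ubiquitin-conjugating enzyme of the anaphase-promoting complex, differed in both directions: 4.23, 5.52, 4.16 and 5.33 TPM in M0, 8.71, 6.27, 7.36 and 8.4 TPM under IFN-γ and 3.30, 3.12, 3.94 and 2.89 TPM under IL-10. The groups did not overlap. The log2 difference from M0 was 0.83 (SE 0.14, limma adjusted p 0.00132) for IFN-γ and -0.43 (SE 0.11, limma adjusted p 0.0235) for IL-10, and the IL-10 call was lost in 5 of 8 fits that left out a library. Top2a (topoisomerase II, which untangles sister chromatids) read 5.02, 7.51, 6.60 and 6.92 TPM in M0 and 3.94, 3.83, 3.77 and 3.93 TPM under IL-10, a difference of -0.62 (SE 0.11, limma adjusted p 0.00326). Under IFN-γ it read 5.77 to 9.07 TPM and was not called against M0 (0.40, limma adjusted p 0.091).

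The other mitosis genes called higher under IFN-γ than in M0 were the checkpoint kinase genes Bub1 (0.82) and Bub1b (0.81), the spindle assembly factor Tpx2 (0.70) and Ccna2 (cyclin A2, 0.74). Bub1 and Tpx2 did not overlap, while Bub1b and Ccna2 did, and Ccna2 lost its call in 6 of 8 fits that left out a library. Ccnb2 (cyclin B2, -0.63) and Kif20a (a kinesin of cytokinesis, -0.47) were called lower in IL-10 non-phagocytic libraries than in M0. The Kif20a call was lost in 1 model of all 28 libraries (limma adjusted p 0.329). Cenpe, the kinetochore motor, read 8.96, 1.06, 1.70 and 2.70 TPM under IFN-γ. One library was far above the rest, and Cenpe was not called (0.84, SE 0.45, limma adjusted p 0.145). Not every mitosis gene leaned upward: Aurka (Aurora A, which matures centrosomes) and Plk1 (a kinase of mitotic entry) gave -0.47 and -0.26 against M0, uncalled, on 2.06 to 11.2 and 2.98 to 12 estimated reads per IFN-γ non-phagocytic library. Mki67 gave 0.17 (95% interval -0.15 to 0.50) for IFN-γ and 0.01 (95% interval -0.17 to 0.19) for IL-10.

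**Figure D4:**
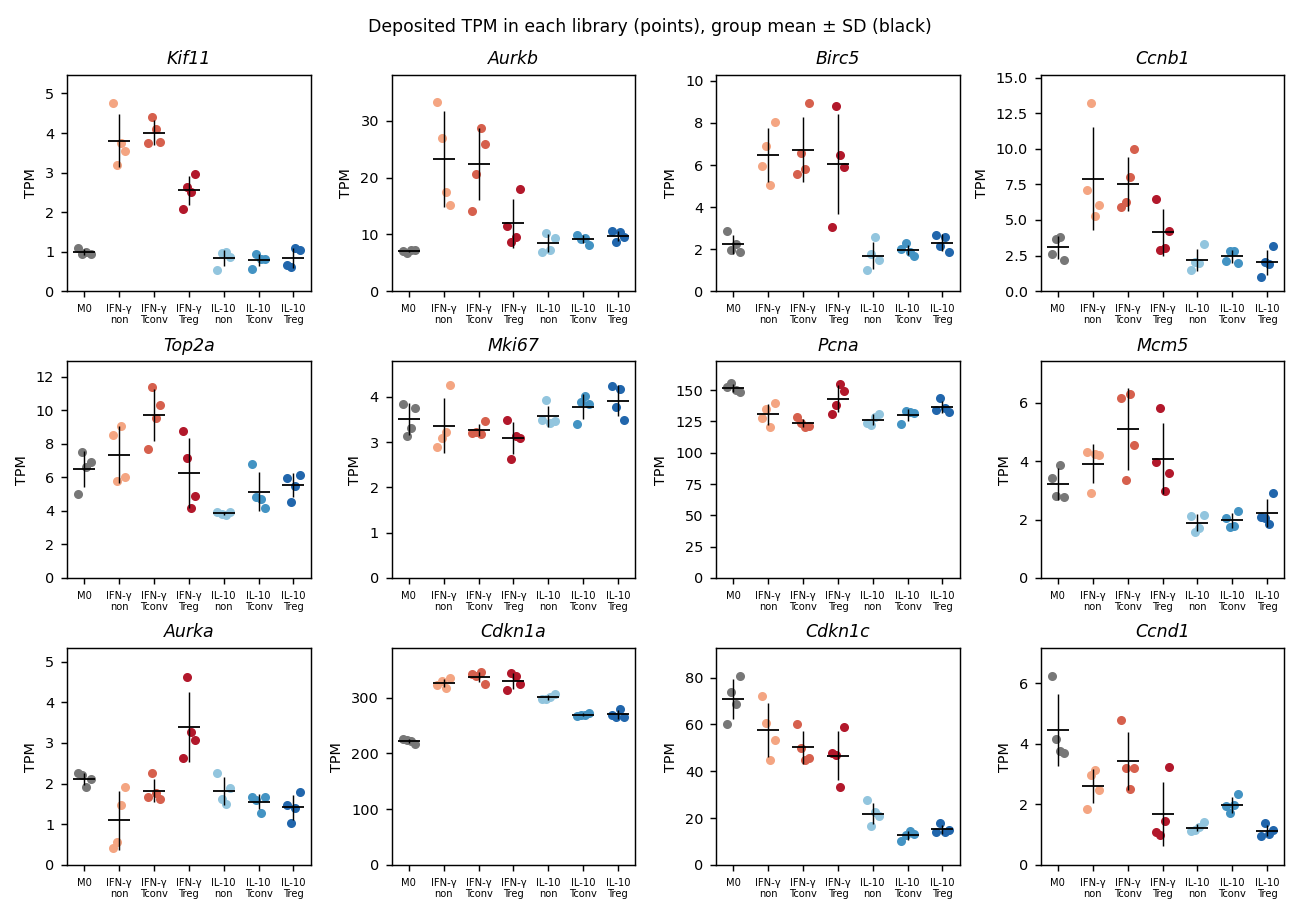
TPM per library (points) with mean ± SD for 12 genes, 1 panel each with its own vertical axis, over the 7 groups. Kif11 lies between 3.18 and 4.77 TPM in IFN-γ non-phagocytic libraries and at 1.09 TPM or below in M0, while Mki67 stays between 2.63 and 4.25 TPM in every group.

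Summed over genes, scaled TPM of the 20 mitosis genes were 65.2 ± 3.91 (SD, n = 4) in M0, 129 ± 22.9 (SD, n = 4) in IFN-γ non-phagocytic and 51.4 ± 2.80 (SD, n = 4) in IL-10 non-phagocytic libraries. They were 124 ± 2.87 (SD, n = 4) in IFN-γ Tconv-phagocytic and 117 ± 15.9 (SD, n = 4) in Treg-phagocytic ones, with the lowest of all 12 IFN-γ libraries at 98.3. In IL-10 Tconv- and Treg-phagocytic libraries they were 56.4 ± 5.90 and 54.7 ± 6.04 (SD, n = 4 each). The 12 S phase genes other than Pcna spanned less: 71.2 in M0, 78.0, 81.9 and 83.1 in IFN-γ non-, Tconv- and Treg-phagocytic libraries, and 65.2, 70.0 and 68.8 in the same IL-10 groups. Their order between M0 and IFN-γ depended on scaling. As deposited, M0 had the highest mean at 78.8 TPM, with 70.5, 76.5 and 71.2 in the IFN-γ groups and 72.9, 74.0 and 72.7 in the IL-10 groups. Scaled T cell sums were 584 to 1139 in the 12 IFN-γ libraries and 56.0 to 227 in the other 16. They moved with the mitosis sums between the cytokines, but not throughout. The IFN-γ non-phagocytic library with the highest T cell sum (981) had the lowest mitosis sum (107). The IFN-γ Treg-phagocytic library with the lowest T cell sum (742) had the highest mitosis sum (134). In IFN-γ Tconv-phagocytic libraries both sums had the same order. Mean T cell sums were 89.5 in M0 and 90.8 in IL-10 non-phagocytic libraries. The part of T cell RNA in the mitosis sums was not tested.

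**Figure D5:**
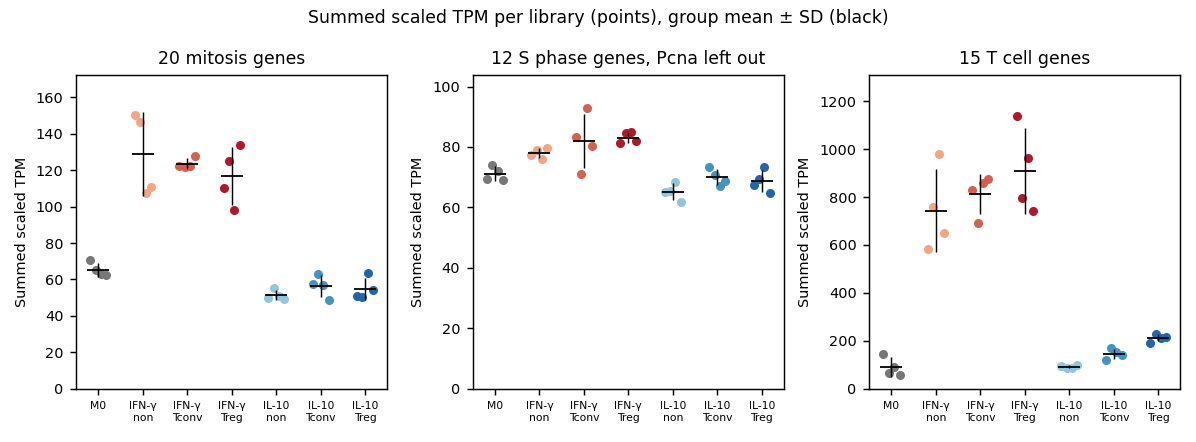
Summed scaled TPM per library (vertical axes) of the 20 mitosis genes, of the 12 S phase genes without Pcna and of the 15 T cell markers, by group, with mean ± SD. All 12 IFN-γ libraries lie at 98.3 or above for mitosis genes and all 16 other libraries at 70.8 or below, and the T cell markers separate the same libraries.

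Other genes of the same pathways were counted in the same way, from lists that hold none of the 38. Of 43 tested kinetochore, spindle, condensin and cytokinesis genes, 24 were called higher and 1 lower for IFN-γ against M0 (median log2 difference 0.60), where 27.1% of all genes were called higher and 25.8% lower. The 4 largest were Racgap1 (2.44, SE 0.10, limma adjusted p 2.87e-07), a regulator of cytokinesis at 36.3 against 7.38 TPM, then the kinesin Kif15 (2.29), the centromeric histone Cenpa (2.15) and the kinesin Kif23 (1.94). Of 41 tested replication genes, 15 were called higher and 4 lower (median 0.25, below the 0.29 that scaling added). The 4 largest were Pola2 (1.47) of DNA polymerase α, Mcm10 (1.39), Gins1 (1.03) and Wdhd1 (0.93), which act at the start of replication.

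For IFN-γ against M0, the further G1 genes leaned higher, with a median log2 difference of 0.75. The E2F and RB counts were near the shares of all genes (27.1% higher and 25.8% lower). Of 13 further G1 cyclins, kinases and inhibitors, 8 were higher and 1 lower for IFN-γ against M0, among them Ccnd2 (cyclin D2, 1.85) and the inhibitors Cdkn2d (1.17) and Cdkn1b (0.87). Of 18 E2F, RB and DREAM genes, 6 were higher and 4 lower, with the RB relative Rbl1 (1.38) and E2f2 (1.24) up and E2f6 (-1.38) and Tfdp1 (-1.24) down. Of 15 p53 targets, 8 were higher and 2 lower, including Mdm2 (1.16), the inhibitor of p53 itself. For IL-10 against M0, where 13.7% of all genes were called higher and 12.8% lower, the kinetochore group had 3 higher and 8 lower (Stmn1 -0.86, Plk4 -0.57, Mad2l1 -0.56), the replication group 3 and 5, the G1 group 3 and 3 (Myc -1.50, Cdkn2d 1.12, Ccnd3 0.85), the E2F and RB group 2 and 2, and the p53 targets 1 and 4. For IFN-γ against IL-10 non-phagocytic libraries (26.2% of all genes higher and 24.8% lower) the kinetochore group had 25 higher and 1 lower (median 0.87). The replication group had 14 and 2, with a median of 0.33, close to the 0.31 that scaling added. Of the 18 E2F, RB and DREAM genes, 6 were higher and 4 lower there (median 0.10), near the shares of all genes. The largest rise among them was that of Foxm1, the forkhead factor of mitosis genes (1.47, SE 0.40, limma adjusted p 0.013).

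The cytokine difference was also present in macrophages that had engulfed T cells. These 2 comparisons were added after values had been seen. In Treg-phagocytic libraries, 17 of 36 members were called higher under IFN-γ than under IL-10, against 18.7% of all genes, and 1 lower (Cdc45), against 18%. In Tconv-phagocytic libraries 16 were higher, against 27.1%, and 1 lower (Mcm3), against 25%. Leaving out a library kept 12 of the 18 Treg-phagocytic calls and 15 of the 17 Tconv-phagocytic calls in all 8 fits. The Cdc45 call was lost in 7 of 8 (limma adjusted p 0.0581 to 0.0975) and with no filter on low values (0.0995), as were those of Bub1b in 7 and Cdc20 in 6 of 8 in Treg-phagocytic libraries. Mitosis genes made up 13 and 11 of those called higher, with medians of 0.98 and 0.84, and S phase genes 2 in each (medians 0.22 and 0.18). Without scaling, the Treg-phagocytic comparison had 13 higher and 2 lower, with an S phase median of -0.06.

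Kif11 again did not overlap in either pair: 2.07, 2.63, 2.52 and 2.97 TPM under IFN-γ against 0.65, 0.61, 1.08 and 1.05 TPM under IL-10 in Treg-phagocytic libraries (log2 difference 1.15, SE 0.16, limma adjusted p 0.000803), and 3.74, 4.41, 4.09 and 3.78 against 0.57, 0.94, 0.82 and 0.81 TPM in Tconv-phagocytic libraries (1.60, SE 0.13, limma adjusted p 1.19e-05). Ube2c differed by 1.47 and 1.38, Birc5 by 1.27 and 1.51, Ccnb2 by 1.34 and 0.95, and Ccna2 by 1.39 and 0.79. Cdkn1c, the p57 inhibitor, differed most among the G1 genes, by 1.83 and 2.07, and did not overlap in either pair. Aurkb was called in Tconv-phagocytic (1.33) but not in Treg-phagocytic libraries (0.49, limma adjusted p 0.112). Aurka was called in Treg-phagocytic (1.07) but not in Tconv-phagocytic libraries (0.26, limma adjusted p 0.161), and Plk1 was called in the same one (0.82 and -0.11). The difference between these pairs was called for Aurka (0.81) and not for Aurkb (-0.84, limma adjusted p 0.0751) or Plk1 (0.92, limma adjusted p 0.0761).

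Few members were called with uptake of T cells, as were few of all genes. Under IFN-γ, Treg-phagocytic against non-phagocytic libraries had 1 member called higher, against 3% of all genes, and 0 lower, against 5.3%. Tconv-phagocytic against non-phagocytic libraries had 0 higher, against 0%, and 0 lower, against 0.00734%. In limma, 0 members had an unadjusted p under 0.05 there. Treg- against Tconv-phagocytic libraries had 2 members called higher, against 5.41%, and 0 lower, against 7.3%.

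Aurka was the gene in both. It read 2.62, 4.63, 3.27 and 3.07 TPM in IFN-γ Treg-phagocytic, 0.42, 0.57, 1.47 and 1.91 TPM in non-phagocytic and 1.68, 2.25, 1.77 and 1.61 TPM in Tconv-phagocytic libraries. All Treg-phagocytic libraries were above the rest. The log2 difference was 1.22 (SE 0.29, limma adjusted p 0.0411) from non-phagocytic and 0.73 (SE 0.20, limma adjusted p 0.0452) from Tconv-phagocytic libraries. These values rest on 13.2 to 15.6 estimated reads per Treg-phagocytic, 2.06 to 11.2 per non-phagocytic and 9.18 to 13.2 per Tconv-phagocytic library. Each call was lost in 7 of 8 fits that left out a library (adjusted p 0.0591 to 0.104 and 0.0661 to 0.108 in those fits).

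Pcna, called higher in IFN-γ Treg- than Tconv-phagocytic libraries, read 131, 138, 155 and 149 TPM against 128, 124, 121 and 121 TPM (log2 difference 0.33, SE 0.07, limma adjusted p 0.0191). The groups did not overlap. The call was lost without scaling (limma adjusted p 0.0675) and in 3 of 8 fits that left out a library, each time a Tconv-phagocytic one (BV421-2, Ax647-1 or Ax647-2). Aurkb and Plk1 leaned apart without a call: Treg- against Tconv-phagocytic libraries gave -0.75 (95% interval -1.38 to -0.12) for Aurkb and 0.75 (95% interval 0.07 to 1.43) for Plk1, with limma adjusted p of 0.12 and 0.147.

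With Treg uptake under IFN-γ few other genes of these pathways were called, as were few of all genes. Against non-phagocytic libraries, 2 of 43 kinetochore genes were higher and 1 lower, 0 of 41 replication genes higher and 2 lower, and 0 of 18 E2F and RB genes higher and 2 lower, where 3% of all genes were higher and 5.3% lower. Racgap1 was at 9.56 TPM in Treg-phagocytic against 36.3 TPM in non-phagocytic libraries (log2 difference -1.79, SE 0.18, limma adjusted p 0.00165) and differed by -1.98 from Tconv-phagocytic libraries. Rbl1 (-1.02 and -0.90), Rb1 (-0.63 and -0.83), Pola2 (-1.0 and -1.37) and Cdc25a (-0.65 and -0.81), the phosphatase that activates CDK2, fell in both. The T cell markers gave 0 calls of 15 against non-phagocytic libraries (median 0.27), while 7 of 10 macrophage markers were called higher and 1 lower (median 0.21). The part of the latter was not tested.

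With IL-10, uptake of Treg cells gave 2 members called higher than in non-phagocytic libraries, against 6.91% of all genes, and 0 lower, against 4.49%. Top2a read 5.95, 4.54, 5.5 and 6.16 TPM against 3.94, 3.83, 3.77 and 3.93 TPM (log2 difference 0.48, SE 0.09, limma adjusted p 0.0145). Pcna read 134, 143, 136 and 132 TPM against 123, 122, 128 and 131 TPM (0.19, SE 0.03, limma adjusted p 0.0107; 0.0683 without scaling). Neither overlapped, and both calls held in all 8 fits that left out a library. Top2a was lost in 1 model of all 28 libraries (limma adjusted p 0.167), and with the replicate block by file number both were lost (0.0537 for Top2a and 0.0636 for Pcna). In the same comparison all 15 T cell markers were called higher (median 1.01), with deposited sums of 202 to 241 against 94.6 to 109 TPM. Of 6 tested stromal markers 5 were called lower (median -1.25), with sums of 28.4 to 32.3 against 83.1 to 87.6 TPM and Lum at 0 in both groups. The part of either was not tested. Without scaling 1 member was higher and 2 lower (Cdkn1a and Cdc6).

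Set against non-phagocytic libraries, the IL-10 libraries with Tconv uptake had 1 member higher, against 4.23% of all genes, and 2 lower, against 1.8%. Ccnd1 read 1.94, 1.70, 1.97 and 2.33 TPM against 1.12, 1.15, 1.26 and 1.41 TPM (log2 difference 0.45, SE 0.09, limma adjusted p 0.0229). Cdkn1c read 10.2, 12.9, 14.6 and 13.0 TPM against 27.5, 16.7, 22.7 and 20.8 TPM (-0.65, SE 0.15, limma adjusted p 0.0429). The fall of Cdkn1a was small (-0.08, SE 0.02, limma adjusted p 0.0482). No gene overlapped between the groups, yet each call was lost in at least 6 of 8 fits that left out a library. Here 5 of 6 tested stromal markers were called higher, with sums of 151 to 164 against 83.1 to 87.6 TPM (Lum at 0 in both groups), and 8 of 15 T cell markers; their part was not tested.

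IL-10 Treg- against Tconv-phagocytic libraries had 0 members called higher, against 0.47% of all genes, and 0 lower, against 0.932%. In limma 1 member, Ccnd1, had an unadjusted p under 0.05 (log2 difference -0.48, SE 0.10, adjusted p 0.0656). Ccnd1 read 0.96, 1.37, 1.03 and 1.14 TPM in the Treg-phagocytic libraries, all below the Tconv-phagocytic ones. Stromal sums were 28.4 to 32.3 against 151 to 164 TPM in this comparison, with 6 of 6 tested stromal markers lower, and their part in Ccnd1 was not tested.

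Whether uptake differed between the cytokines was tested as a difference of differences in a model of the 4 groups. For Treg- against Tconv-phagocytic libraries, 2 members were called higher (IFN-γ minus IL-10), against 5.82% of all genes, and 0 lower, against 7.78%. They were Aurka (0.81, SE 0.23, limma adjusted p 0.0296) and Pcna (0.26, SE 0.08, limma adjusted p 0.0405). Aurka was lost in 6 and Pcna in 11 of 16 fits that left out a library, and without scaling 0 members were higher and 1, Aurkb, was lower.

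For Treg-phagocytic against non-phagocytic libraries 1 member, Aurka, was called higher, against 3.22%, and 0 lower, against 6.22%. Its difference was 1.39 (95% interval 0.69 to 2.09, limma adjusted p 0.0138), and it was called under all 23 alternatives that could test it (limma adjusted p 0.00074 to 0.0339). Those alternatives reuse the same libraries, with only 2.06 to 11.2 estimated reads of Aurka in each IFN-γ non-phagocytic one. Under IL-10, Aurka read 1.46, 1.04, 1.39 and 1.78 TPM in Treg-phagocytic and 2.27, 1.62, 1.5 and 1.90 TPM in non-phagocytic libraries. Without scaling 2 members were higher and 1 lower. Racgap1 differed by -2.09 in the same test (limma adjusted p 5.2e-05). For Tconv-phagocytic against non-phagocytic libraries 0 members were called higher, against 0.205%, and 0 lower, against 1.47%. In limma 1 member, Pcna, had an unadjusted p under 0.05 there (-0.25, adjusted p 0.123).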

How the data were processed

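Poly(A) RNA of 28 macrophage libraries was analysed as deposited, in 7 groups of 4 taken from the labels. The deposited files hold TPM, per the file headers, for Ensembl gene identifiers, with 2 decimals. The submitters' processing notes name STAR, RSEM and mm10, with no role given. Read counts were not used here; depth is relative and comes from TPM times transcript length.

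TPM were divided by a trimmed mean scaling factor (30% of log ratios and 5% of levels trimmed at each end, from 11397 genes). Differences of log2(scaled TPM + 1) were fitted with limma 3.58.1 (R 4.3.3, eBayes with trend, two-sided, Benjamini-Hochberg over the 13631 genes that reached 1 TPM in 4 or more libraries, called under 0.05). Each fit held only the groups compared. The scripts were tested on simulated data. A pseudocount of 1 shrinks the differences of low genes.

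Alternatives were 1 model of all 28 libraries, no scaling or median-of-ratios scaling, a pseudocount of 0.1 or 5 TPM, no filter or a filter of 5 TPM, a replicate block, and each library left out. Members and lists were chosen with earlier results of these data known. All 38 members could be named, and from each other list up to 4 called genes with the largest absolute difference and at least 1 TPM in the higher group. The comparisons of IFN-γ with IL-10 within phagocytic libraries were added after seeing the data. Of 378 pairs of libraries, 0 held identical values. Motifs were searched in RefSeq promoters of GRCm38.p6.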

Additional observations from a re-analysis of the deposited data

Results flagged for a closer look

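In 18 of 266 combinations of a member and a group of 4 libraries (6.77%), 1 library stood apart from the other 3; chance alone gives this in about 1 in 20 groups. Under IFN-γ these were Mcm5 in non-phagocytic library 2 (2.90 TPM, the others 4.19 to 4.31), Mcm7 in Tconv-phagocytic Ax647-1 (12.87 TPM), Mki67 in Tconv-phagocytic Ax647-2 (3.46 TPM), Bub1b in Tconv-phagocytic BV421-2 (21.16 TPM, the others 6.45 to 7.99), Tpx2 in Tconv-phagocytic BV421-1 (6.80 TPM), Cdc45 in Treg-phagocytic Ax647-1 (1.86 TPM) and Cdc20 in Treg-phagocytic BV421-2 (13.62 TPM, the others 3.25 to 4.66). Under IL-10 they were Mki67 in non-phagocytic library 2 (3.92 TPM) and Cenpf in library 4 (0.57 TPM). In IL-10 Tconv-phagocytic libraries they were Ccne2 in Ax647-2 (0.66 TPM), Mcm6, Bub1 and Bub1b in Ax647-1 (11.04, 1.77 and 5.69 TPM) and Pcna in BV421-1 (123.27 TPM). In IL-10 Treg-phagocytic libraries they were Mcm4 and Bub1b in BV421-1 (7.05 and 3.23 TPM) and Cenpf in BV421-2 (1.47 TPM, the others 0.14 to 0.23). In M0 it was Aurkb in library 2 (6.74 TPM, the others 7.14 to 7.22).

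The difference of Treg- against Tconv-phagocytic libraries itself differed between IFN-γ and IL-10 for Aurka (0.81 on the log2 scale) and Pcna (0.26), and that of Treg-phagocytic against non-phagocytic libraries for Aurka (1.39).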

How the results depend on the processing

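Of 251 counts of members called under alternatives, 183 lay within 1.5 times the reported count and 68 did not. Of 8798 values of single members, 8496 kept their side of the threshold, 202 lost and 99 gained a call, and 1 reversed. The reversed one was Pcna in IFN-γ against M0, at -0.22 without scaling. Direction was compared only for values called in either fit, so values uncalled in both could change sign unseen. In that comparison the S phase median went from 0.08 to -0.18 without scaling. Leaving out each library in turn gave 10 to 13 calls for IFN-γ and 9 to 10 for IL-10 against M0. It gave 16 to 19, 12 to 19 and 15 to 19 for IFN-γ against IL-10 in non-, Treg- and Tconv-phagocytic libraries. Under IFN-γ it gave 0 to 1 for Treg-phagocytic and 0 to 0 for Tconv-phagocytic against non-phagocytic libraries, and 0 to 3 for Treg- against Tconv-phagocytic. Under IL-10 these were 2 to 4, 0 to 1 and 0 to 0. The differences of differences gave 0 to 4 (Treg- against Tconv-phagocytic), 1 to 3 (Treg- against non-phagocytic) and 0 to 1 (Tconv- against non-phagocytic).

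The model of all 28 libraries gave 10 calls for IFN-γ Treg-phagocytic against non-phagocytic and 12 for Treg- against Tconv-phagocytic ones, 1 for each IL-10 uptake group against non-phagocytic, and 4 for the Treg-phagocytic difference of differences. It shares 1 spread between IFN-γ and the other groups. Without scaling, Treg- against Tconv-phagocytic libraries gave 0 under IFN-γ, and the differences of differences gave 1 (Treg- against Tconv-phagocytic), 3 (Treg- against non-phagocytic) and 1 (Tconv- against non-phagocytic). A pseudocount of 0.1 TPM gave 0 (IFN-γ Treg- against non-phagocytic) and 1 (IFN-γ Treg- against Tconv-phagocytic). No filter gave 0 and 1 for the same pairs, 1 for IL-10 Tconv- against non-phagocytic and 1 for the Treg- against Tconv-phagocytic difference of differences. A filter of 5 TPM, which tests fewer members, gave 7 for IL-10 against M0, 0 and 1 for those IFN-γ pairs, 10 for IFN-γ against IL-10 Treg-phagocytic and 1 for the Treg- against Tconv-phagocytic difference of differences.

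Replicate numbers did not clearly pair the libraries: deviations of same-numbered libraries correlated at -0.07 to 0.09. The file numbers of M0 differ from those of the other groups, so M0 libraries were matched to them in order. A replicate block by file number gave 0 calls for IFN-γ Treg-phagocytic against non- and against Tconv-phagocytic libraries, for both IL-10 uptake groups against non-phagocytic and for the Treg- against Tconv-phagocytic difference of differences. A replicate block by title dye and number gave 1 for Treg- against Tconv-phagocytic under IFN-γ and 1 for that difference of differences. Depth limited low genes under IFN-γ: Ccne2 had 0 to 4.18, Aurka 2.06 to 11.2 and Plk1 2.98 to 12 estimated reads in non-phagocytic libraries, and Cdc45 2.51 to 11.4 in Treg-phagocytic libraries.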
